A study of Mus musculus with 6 samples.

Results

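The genes described here are 35 genes of mitochondrial and peroxisomal fatty acid oxidation, taken by name from the 16627 genes of the deposited count table and described by compartment, with 22 genes placed in the mitochondrion and 13 in the peroxisome. All 35 were found and all 35 passed the filter on low counts. Acsl1, Crat, Acad11 and Eci2 have products known from more than 1 compartment. The first 3 were counted as mitochondrial and Eci2 as peroxisomal. RNA came from inguinal white adipose tissue, the subcutaneous fat pad of the groin, of mice exposed to 4 °C for 6 hours. In the 3 Celf1 AKO libraries Celf1 had been knocked out specifically in adipocytes, and the 3 Flox control libraries came from littermates carrying floxed Celf1 (fl/fl) alleles. Both groups were exposed to cold, so the comparison is of genotype in the cold and not of cold against warmth. The driver of the deletion, the age, the sex and the strain do not stand in the labels used here, and no label says in so many words that each library is a separate mouse, so that the spread between libraries may be partly technical. Celf1 is an RNA-binding protein with roles in the splicing, translation and decay of mRNAs, and the series deals with beiging, the appearance of heat-producing adipocytes in white fat.

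Fatty acids are burned in the mitochondrion after they are activated to acyl-CoA, passed through the inner membrane as acylcarnitines and shortened in repeated rounds of dehydrogenation, hydration, dehydrogenation and thiolysis. The electrons taken by the acyl-CoA dehydrogenases pass through the electron transfer flavoprotein to ubiquinone. Peroxisomes shorten very long and branched chains with their own enzymes and hand the products on. In brown and beige fat this oxidation fuels heat production by the uncoupling protein Ucp1.

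Celf1 itself lay at 52.5, 49.8 and 63.0 CPM (reads scaled to the size of the library with TMM factors) in the knockout libraries (Celf1 AKO replicates 1 to 3 in this order here and below), against 126, 114 and 144 CPM in the 3 Flox controls, so that the label was met in every library, in tissue that also holds cells without the deletion. Library totals ran from 54835348 to 64979443 counts, and intervals were not drawn from them because the spread between libraries was far larger than counting error. Adipoq, the adiponectin gene that defines adipocytes, lay at 2591, 2790.2 and 2731 CPM against 2566, 2444.5 and 2443 CPM. All 3 knockout libraries were above all 3 controls, as for 7.81% of all genes, with a log2 fold change of 0.12 (edgeR adjusted p = 0.701). Ucp1 was at 79.6, 4.86 and 34.0 CPM against 461, 567 and 495 CPM. The 8 brown and beige adipocyte markers had 7 negative log2 fold changes, where 52.5% of all genes tested were negative. Their summed level ran from 202 to 451 CPM in Celf1 AKO and from 887 to 965 CPM in Flox control. Of these markers Ppargc1a alone had a positive log2 fold change, of 0.85 (SE 0.36). It was at 186, 80.4 and 74.7 CPM against 79.3, 52.4 and 57.4 CPM, with overlapping groups and a positive log2 fold change. The 10 endothelial markers had 9 positive ones (1079.6 to 1258 against 619 to 917 CPM summed), and all 9 Schwann cell markers were positive (551 to 799.7 against 345 to 426 CPM). All 6 neutrophil markers tested were positive too, but their sums overlapped (16.5, 26.2 and 114 against 7.86, 16.7 and 3.41 CPM). The 114 CPM was Celf1 AKO replicate 3, and 2 of the 6 genes had all 3 knockout libraries above all 3 controls. The summed levels of the 12 mature adipocyte markers (59533 to 73980 against 66466 to 73164 CPM), the 8 macrophage markers (585 to 1687 against 1050.3 to 1490.4 CPM) and the 8 preadipocyte and fibroblast markers (3969 to 6838 against 4601 to 6270.1 CPM) overlapped between the groups. Their negative log2 fold changes numbered 8, 7 and 6, with medians of -0.04, -0.10 and -0.11. The most negative mature adipocyte marker was Lep, at -1.71 (edgeR adjusted p = 0.324), with overlapping groups. The part of these cell types in the results below was not tested. In bulk tissue, fewer cells of a type and less RNA per cell cannot be told apart.

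To show what the regions near the start sites of leading members hold, RefSeq promoters (GRCm38.p6, 250 bases before to 50 after the start) were searched on both strands. A promoter was found for 29 of the 35 members. Acadm, Acadvl and Etfdh were taken because they had the smallest p-values of all members, and Hadha because its promoter window shares 228 bases with that of its divergent neighbour Hadhb. Each sequence is written 5′ to 3′ on its gene's strand, and capitals mark AGGTCA, the core motif of nuclear receptors such as the PPARs, or the GC-rich motif of the transcription factor NRF1, on either strand.

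Acadm, chr3:153944594-153944893, minus strand: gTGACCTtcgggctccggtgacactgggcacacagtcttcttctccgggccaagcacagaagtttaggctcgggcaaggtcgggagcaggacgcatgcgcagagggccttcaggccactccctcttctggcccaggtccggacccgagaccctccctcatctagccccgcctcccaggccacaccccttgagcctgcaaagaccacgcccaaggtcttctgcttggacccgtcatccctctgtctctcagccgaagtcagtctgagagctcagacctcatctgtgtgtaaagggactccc
Acadvl, chr11:70015379-70015678, minus strand: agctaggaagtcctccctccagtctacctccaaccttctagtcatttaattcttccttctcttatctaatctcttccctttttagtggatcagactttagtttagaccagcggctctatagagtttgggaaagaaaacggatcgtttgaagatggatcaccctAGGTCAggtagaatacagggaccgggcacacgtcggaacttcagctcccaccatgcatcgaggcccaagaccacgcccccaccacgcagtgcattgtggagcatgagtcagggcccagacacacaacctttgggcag
Etfdh, chr3:79628718-79629017, minus strand: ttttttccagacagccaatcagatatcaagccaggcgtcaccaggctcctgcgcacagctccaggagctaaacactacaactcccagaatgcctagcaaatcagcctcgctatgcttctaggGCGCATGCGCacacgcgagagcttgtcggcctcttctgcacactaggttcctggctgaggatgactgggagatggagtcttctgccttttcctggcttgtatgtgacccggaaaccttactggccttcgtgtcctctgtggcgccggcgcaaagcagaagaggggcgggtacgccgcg
Hadha, chr5:30154931-30155230, minus strand: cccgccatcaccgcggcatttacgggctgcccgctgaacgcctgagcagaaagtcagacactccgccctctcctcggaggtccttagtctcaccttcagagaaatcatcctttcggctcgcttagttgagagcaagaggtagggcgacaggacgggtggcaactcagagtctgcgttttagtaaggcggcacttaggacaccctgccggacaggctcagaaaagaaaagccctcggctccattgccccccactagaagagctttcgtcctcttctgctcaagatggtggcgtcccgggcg

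In Acadvl the AGGTCA motif began 87 bases before the start, and in Acadm it lay on the other strand at the far end of the window, beginning 249 bases before the start. In Etfdh the NRF1 motif began 128 bases before the start. The Hadha window held none of the motifs searched. AGGTCA was found for 6 of the 29 members with a promoter (Cpt1a, Acadvl, Acadm, Echs1, Scp2 and Phyh), against 18.1% of all 27025 genes with a promoter. The NRF1 motif was found for 4 (Acad10, Etfb, Etfdh and Abcd3), against 5.19% of all genes. None of the 29 held the direct repeat of AGGTCA spaced by 1 base, to which PPARs bind (0.0481% of all genes), the ERR receptor motif TCAAGGTCA (0.466%), which contains AGGTCA, or the cAMP response element TGACGTCA (2.03%). These matches are letters in a window of 300 bases and not shown binding sites.

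Because Celf1 binds GU-rich stretches of 3′ untranslated regions, the GENCODE M21 3′ untranslated regions of the members were searched on the sense strand for the GU-rich element, in which G alternates with single and triple U. It was found in 0 of the 35 members and in 3.75% of the 14111 coding genes searched. The members' regions were shorter, with a median of 574 bases against 1014. An unbroken alternation of U and G, the GU repeat, was found in 1 member, Decr1, against 7.60% of genes. It is shown because Decr1 was the 1 member with a match. The region of 1795 bases held 8 overlapping matches that began at bases 488 to 502, and capitals mark the first.

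Decr1: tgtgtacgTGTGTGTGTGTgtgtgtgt

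Across the members, mitochondrial genes lay lower in Celf1 AKO and peroxisomal ones were divided. The difference between the compartments was not tested. Genes of the pathway beside the members had median log2 fold changes of -0.15 (mitochondrial) and -0.17 (peroxisomal). All 22 mitochondrial genes had a negative log2 fold change (median -0.37, range -1.70 to -0.05), where 52.5% of all 16366 genes tested were negative, with a median of -0.02. Of the 13 peroxisomal genes 9 were negative and 4 positive (median -0.11, range -0.96 to 0.25). By edgeR's quasi-likelihood test 0 of the 35 members passed an adjusted p of 0.05 over all genes, where 2 genes passed in all (0.0122% of those tested), and the members' adjusted p-values ran from 0.227 to 0.968. So no single member was called higher or lower, and what follows gives levels and differences with that limit.

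At an unadjusted p under 0.05, edgeR placed 11 of 22 mitochondrial and 3 of 13 peroxisomal members lower, against 6.17% of all genes, and 0 members higher, against 6.75%. In CPM, all 3 knockout libraries lay below all 3 controls for 13 mitochondrial and 4 peroxisomal members, against 9.51% of all genes. For 0 members did all 3 knockout libraries lie above, against 7.81%. The members were chosen with earlier results of these data known, and members of a pathway are not independent of each other. These counts therefore describe the list and are no test of it. DESeq2 on the same counts called 7 members lower, against 0.902% of all genes: Slc25a20, Cpt2, Acadvl, Acadm, Etfdh, Abcd3 and Ehhadh. Without Celf1 AKO replicate 3, edgeR called 3 members lower (Slc25a20, Acadvl and Etfdh), against 1.76% of all genes. With any of the other 5 libraries left out, edgeR called 0 members. At an unadjusted p under 0.05, 7 mitochondrial members lay lower without Celf1 AKO replicate 1, against 3.1% of all genes, and 7 without Flox control replicate 1, against 6.41%.

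**Figure D1:**
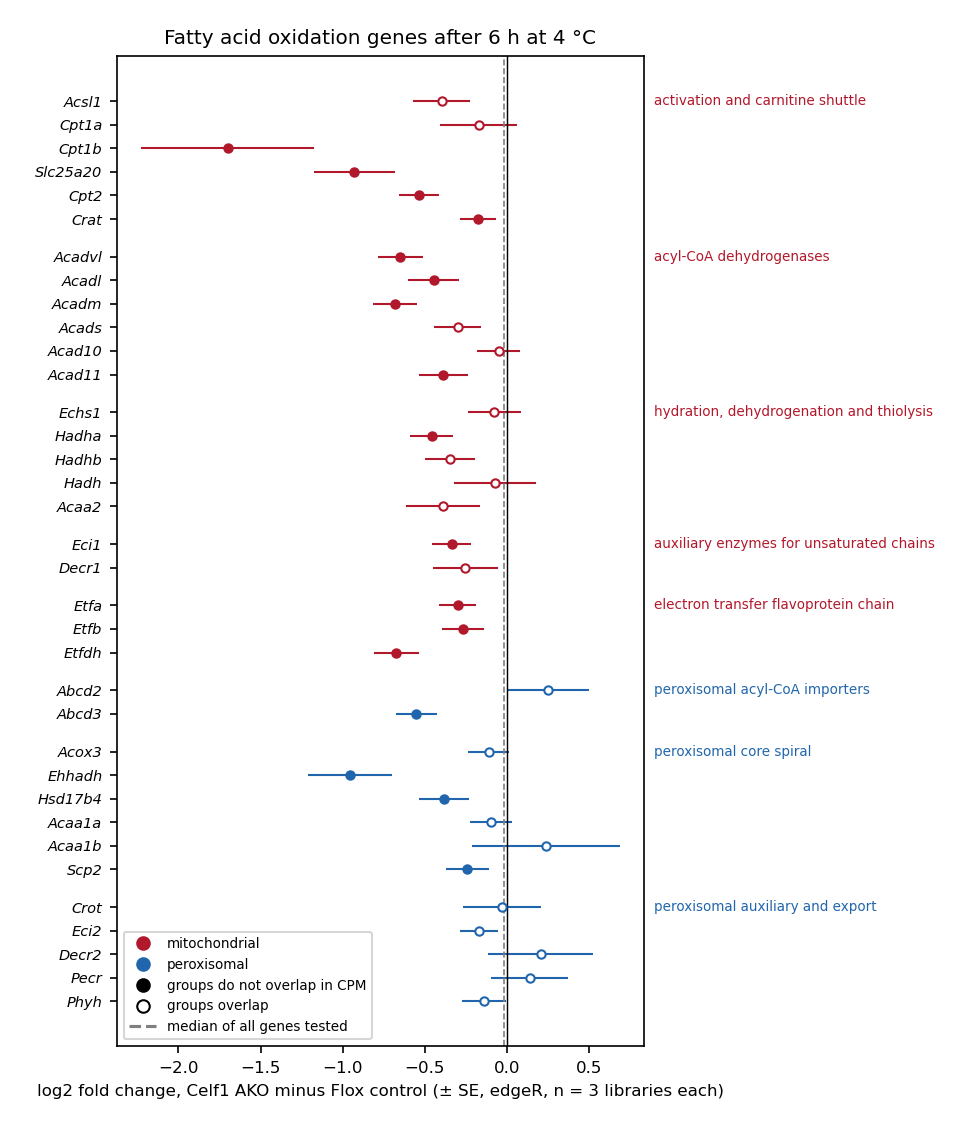
The log2 fold change of each of the 35 members (x axis, Celf1 AKO minus Flox control, edgeR, n = 3 libraries each) is shown with its SE as a bar, ordered by role, red for mitochondrial and blue for peroxisomal genes. Filled points have all 3 knockout libraries below all 3 controls, open points overlap, and the dashed line is the median of all genes tested, -0.02. All 22 red points lie left of 0, and 4 of the 13 blue points lie right of it.

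Levels between genes were compared in FPKM, the authors' values per length of gene. The mitochondrial members summed to 3601, 3471 and 4073 FPKM in Celf1 AKO replicates 1, 2 and 3 and to 4991, 4672 and 5153 FPKM in the Flox controls, without overlap. Acsl1 alone made up 32.3% of that sum, followed by Acadl (9.47%), Etfb (9.33%) and Acadm (9.12%). The peroxisomal members summed to 871, 955 and 999.9 FPKM against 1109, 1079.8 and 1134 FPKM, also without overlap. Scp2 made up 42.4% of that sum, Phyh 20.6% and Hsd17b4 14.1%. The mean level of a member over the 6 libraries ran from 0.382 FPKM for Cpt1b to 1397 FPKM for Acsl1.

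**Figure D2:**
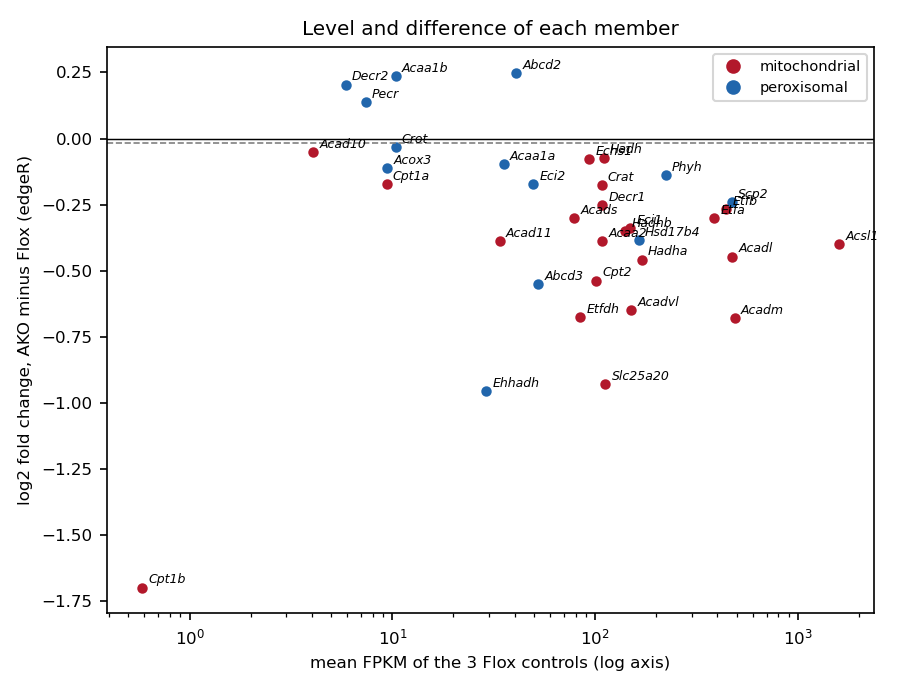
Each point is a member, placed by its mean level in the 3 Flox controls (x axis, FPKM, log axis) and by its log2 fold change (y axis, edgeR, Celf1 AKO minus Flox control). The solid line is 0 and the dashed line the median of all genes tested. Cpt1b stands at the lowest level and the most negative difference (-1.70), and Acsl1 at the highest level with -0.40.

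Of the 6 genes of activation and the carnitine shuttle, 4 had all 3 knockout libraries below all 3 controls (Slc25a20, Cpt2, Cpt1b and Crat). The share over all genes was 9.51%. Of these 6 genes 0 passed the edgeR test over all genes. Slc25a20, the carrier that exchanges acylcarnitine for carnitine across the inner membrane (chr9:108662088-108684641), was at 118, 139 and 228 CPM in Celf1 AKO and at 323, 266 and 334 CPM in Flox control. The knockout mean was 52.5% of the control mean, with a log2 fold change of -0.93 (SE 0.25, edgeR adjusted p = 0.262). Celf1 AKO replicate 3 lay closest to the controls, and without it the log2 fold change was -1.26 (edgeR adjusted p = 0.0243). Without any other library it ran from -1.03 to -0.71 (edgeR adjusted p from 0.315 to 0.793). Cpt2, which turns acylcarnitine back into acyl-CoA in the matrix (chr4:107903981-107923610), was at 145, 180.0 and 167 CPM against 242, 227 and 245 CPM. The groups did not overlap, and the log2 fold change was -0.54 (SE 0.12, edgeR adjusted p = 0.237).

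Carnitine palmitoyltransferase 1, the regulated gate of the pathway, is made in a liver form, Cpt1a, and in a muscle form, Cpt1b, that brown fat also makes. Cpt1b (chr15:89416405-89425863) was near the floor of detection, with 42, 9 and 42 reads in Celf1 AKO and 105, 111 and 106 reads in Flox control. In CPM that was 0.519 ± 0.33 against 1.69 ± 0.099 (SD, n = 3 each), for a difference of -1.70 in log2 (SE 0.53, edgeR adjusted p = 0.301). All 3 knockout libraries were below all 3 controls. Its exons share 81.4% of their bases with the readthrough gene Gm44502 of the annotation, which is not analysed here, so its value is uncertain. Cpt1a lay at 40.5, 25.5 and 40.02 CPM against 29.0, 45.6 and 44.9 CPM, with overlapping groups. Per library, the log2 ratio of Cpt1b to Cpt1a reads was -5.71, -7.36 and -5.94 in Celf1 AKO and -4.00, -4.79 and -4.78 in Flox control. The ratio thus differed by -1.81, with all knockout values below all control values (exact two-sided permutation p = 0.1, the smallest that 3 against 3 allows, and 0.2 adjusted over the 2 ratios tested). Of 10 skeletal muscle markers listed, 2 were in the table. Acta1, muscle actin, lay at 1039 CPM in Celf1 AKO replicate 3 and at 23.1 to 75.2 CPM in the other 5 libraries. Mb, the muscle myoglobin gene, was at 1.18 CPM in that library and at 0.245 CPM or less in the others.

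Acsl1, the acyl-CoA synthetase that activates long-chain fatty acids in adipocytes, was at 6005, 6019.5 and 8329 CPM against 9179, 8328 and 9322 CPM. Replicates 1 and 2 of Celf1 AKO lay well below the controls, while replicate 3 met the lowest control, and the log2 fold change was -0.40 (SE 0.17, edgeR adjusted p = 0.393). Crat, which makes acetylcarnitine, differed little in size but without overlap, at 401 ± 18.2 against 453 ± 15.5 CPM (SD, n = 3 each).

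The acyl-CoA dehydrogenases, which take the first electrons from the chain, are divided by chain length. Acadm, the medium-chain enzyme (chr3:153922357-153944632), had the smallest p of the 35 members. It was at 635, 647 and 586 CPM in Celf1 AKO and at 1081, 871 and 1041 CPM in Flox control, so that the knockout libraries lay close together at 62.4% of the control mean. The log2 fold change was -0.68 (SE 0.13, edgeR adjusted p = 0.227). Acadvl, the very-long-chain enzyme of the inner membrane (chr11:70010183-70015411), was at 196, 199.9 and 229 CPM against 355, 284 and 339 CPM, a log2 fold change of -0.65 (SE 0.13, edgeR adjusted p = 0.227). With Celf1 AKO replicate 3 left out, its edgeR adjusted p was 0.0487, and with any other library left out it was 0.262 to 0.782. Its exons share 42.9% of their bases with Dvl2 on the other strand, and the counting is not stated to use the strand of origin. Dvl2 was counted at 6.41, 6.12 and 10.6 CPM against 8.94, 11.1 and 10.8 CPM. Whether shared reads bear on the Acadvl values was not tested.

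Acadl, the long-chain enzyme, was at 658, 651 and 692 CPM against 1070.3, 744 and 914 CPM, with a log2 fold change of -0.45 (SE 0.16). Its control libraries spread far more than its knockout libraries. Acad11, which acts on very long and hydroxylated chains, was at 72.9, 97.9 and 97.7 CPM against 121, 103 and 127 CPM, again without overlap. Acads, the short-chain enzyme, overlapped between the groups (129 ± 17.4 against 159 ± 18.8 CPM, SD, n = 3 each), as did Acad10 at 18.7 ± 1.14 against 19.4 ± 1.84 CPM. Among these 4 genes the adjusted p by edgeR ran from 0.323 for Acadl to 0.896 for Acad10.

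The electrons leave the dehydrogenases through the flavoprotein Etfa and Etfb and its ubiquinone oxidoreductase Etfdh. All 3 genes had knockout libraries below all control libraries, against 9.51% of all genes. Etfdh (chr3:79603788-79629500) was at 195, 177 and 219 CPM against 338, 276 and 330.0 CPM, a log2 fold change of -0.67 (SE 0.14, edgeR adjusted p = 0.227, 0.0437 without Celf1 AKO replicate 3 and 0.261 to 0.782 without any other library). Etfa was at 429, 423 and 455 CPM against 567, 518 and 525 CPM (log2 fold change -0.30, SE 0.11). Etfb was at 324, 337 and 298 CPM against 418, 341 and 394 CPM (-0.27, SE 0.13), where the highest knockout library nearly met the lowest control. The membrane oxidoreductase thus had the more negative fold change of the chain, a difference between genes that was not tested. Exons of Etfb share 53.0% of their bases with the overlapping gene Gm45233, not analysed here.

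Of the 5 genes of the later steps of the spiral, 1, Hadha, had all knockout libraries below all controls, against 9.51% of all genes. Hadha, the alpha subunit of the mitochondrial trifunctional protein for long chains (chr5:30118304-30155162), was at 513, 503 and 475 CPM against 766, 609 and 674 CPM. The log2 fold change was -0.46 (SE 0.13, edgeR adjusted p = 0.285), without overlap. Hadhb, the beta subunit encoded next to it on the other strand, was at 480.0, 522 and 454 CPM against 725, 521 and 607 CPM (-0.35, SE 0.15), where 1 knockout library reached the lowest control. The short-chain hydratase Echs1 (363 ± 54.3 against 383 ± 53.4 CPM) and the short-chain dehydrogenase Hadh (394 ± 122 against 415 ± 71.3 CPM) overlapped between the groups (SD, n = 3 each). For all 5 genes of these steps Celf1 AKO replicate 3 was the lowest of the 6 libraries and Flox control replicate 1 the highest. In the thiolase Acaa2, Celf1 AKO replicate 3 lay at 83.7 CPM, the other 2 knockout libraries at 153 and 139.6 CPM, and the controls at 185, 159.8 and 148 CPM, with overlap (log2 fold change -0.39, SE 0.22, edgeR adjusted p = 0.498).

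Of the enzymes that reposition double bonds for unsaturated chains, Eci1, an enoyl-CoA isomerase, was at 122, 128 and 135 CPM against 184, 149.9 and 153 CPM (log2 fold change -0.34, SE 0.12, edgeR adjusted p = 0.327). Decr1, the dienoyl-CoA reductase, was at 299, 306 and 204 CPM against 384, 279 and 302 CPM, with overlap, and there too Celf1 AKO replicate 3 was lowest.

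**Figure D3:**
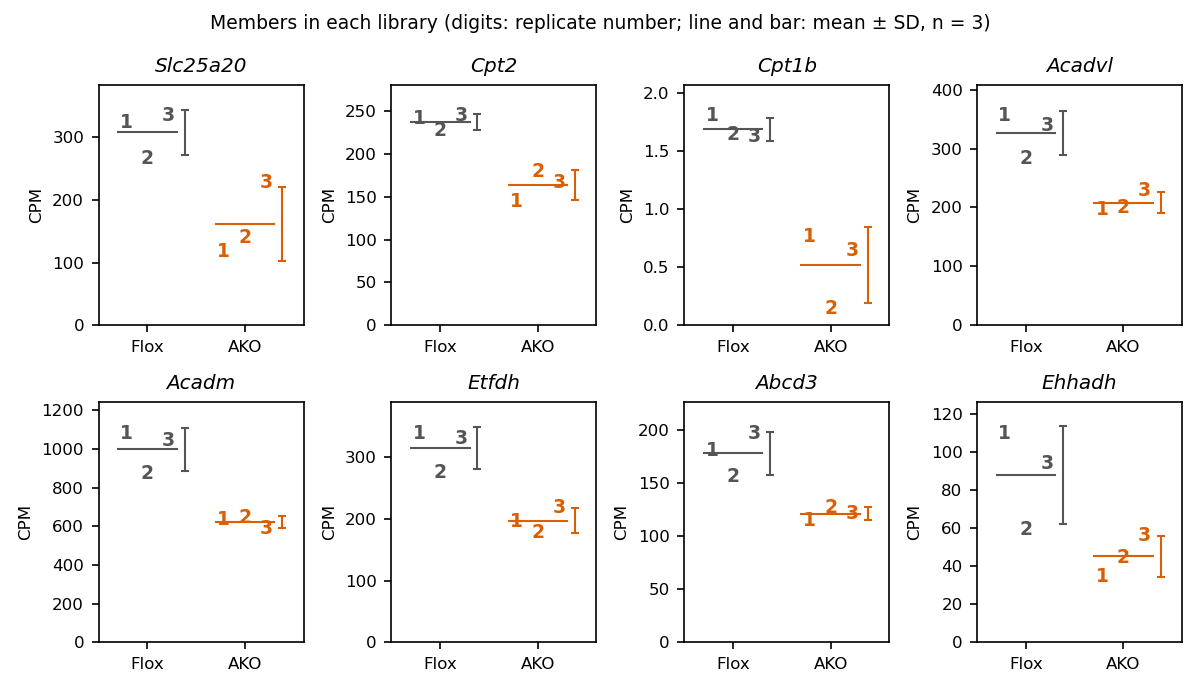
CPM (y axis, from 0) of 8 members in each library, with the replicate number as the mark, grey for Flox control and orange for Celf1 AKO. The line is the mean and the bar the SD of 3 libraries. In all 8 genes the highest knockout library lies below the lowest control, against 9.51% of all genes. In Ehhadh these are 56.1 and 59.6 CPM.

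In the peroxisome, all 3 knockout libraries lay below all 3 controls for 4 of 13 genes, against 9.51% of all genes. These were Abcd3, Ehhadh, Hsd17b4 and Scp2. Abcd3, an importer of long and branched acyl-CoA (chr3:121758774-121815302), was at 115, 127 and 121 CPM in Celf1 AKO and at 180.3, 156 and 197 CPM in Flox control. The 3 knockout libraries lay close together at 68.2% of the control mean, with a log2 fold change of -0.55 (SE 0.12, edgeR adjusted p = 0.233). Abcd2, an importer of very-long-chain acyl-CoA that is high in fat, went apart from it at 313, 322 and 165 CPM against 221, 252 and 199 CPM. Replicates 1 and 2 of Celf1 AKO lay above every control and replicate 3 below every control, so the log2 fold change of 0.25 (SE 0.25) describes no library well.

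Ehhadh, the bifunctional hydratase and dehydrogenase of the peroxisome and a classic target of PPAR receptors (chr16:21761287-21787807), was at 34.9, 44.8 and 56.1 CPM against 110.2, 59.6 and 94.0 CPM. Its log2 fold change of -0.96 (SE 0.25, edgeR adjusted p = 0.262) was the most negative of the peroxisomal members. Hsd17b4, the other bifunctional enzyme, which also takes branched chains, was at 291, 392 and 328 CPM against 467, 396 and 456 CPM (-0.38, SE 0.15, edgeR adjusted p = 0.350). Here the highest knockout and lowest control library were nearly level.

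Scp2, whose product includes the thiolase for branched chains, was at 967, 1092 and 1103 CPM against 1345, 1135 and 1257 CPM, without overlap (log2 fold change -0.24, SE 0.13). The other core thiolases are the near-copies Acaa1a and Acaa1b, in which 34.0% and 35.5% of all 50-base stretches of the longest coding transcript are shared, so reads could be split between them. Acaa1a was at 109.5, 140.3 and 113 CPM against 135, 131 and 122 CPM. Acaa1b was at 14.3, 31.3 and 17.6 CPM against 30.5, 10.9 and 12.2 CPM, with 1 high library in each group. The log2 ratio of Acaa1b to Acaa1a differed by 0.42 between the groups, less than the SD of 0.77 in Flox control (exact two-sided permutation p = 0.5). Acox3, an oxidase for branched chains, overlapped at 34.5 ± 4.40 against 37.3 ± 0.67 CPM (SD, n = 3 each).

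The peroxisomal enzymes around the core had fold changes between -0.17 and 0.20, and in 0 of 5 did the groups separate. Of all genes, 9.51% had all knockout libraries below all controls and 7.81% above. Phyh, which starts the alpha-oxidation of phytanic acid, was at 256, 281 and 332 CPM against 337, 318 and 303 CPM. The isomerase Eci2 was at 69.6 ± 8.01 against 78.5 ± 3.89 CPM and the octanoyltransferase Crot, which exports shortened chains as carnitine esters, at 30.4 ± 10.0 against 31.1 ± 0.92 CPM (SD, n = 3 each). The reductases Decr2 and Pecr had positive log2 fold changes of 0.20 (SE 0.32) and 0.14 (SE 0.24). In Crot, Decr2 and Pecr, as in Abcd2, Celf1 AKO replicate 3 was the lowest library and replicate 2 the highest.

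The knockout libraries thus did not share 1 pattern across the members. For the 22 mitochondrial members the lowest of the 6 libraries was Celf1 AKO replicate 3 in 9, replicate 1 in 7, replicate 2 in 5 and Flox control replicate 3 in 1. The highest was Flox control replicate 1 in 17. Per library, the median deviation of the mitochondrial members from the control mean, in log2(CPM + 0.5), was -0.38, -0.34 and -0.43 in Celf1 AKO replicates 1, 2 and 3 and 0.12, -0.10 and -0.01 in the Flox controls. For the peroxisomal members it was -0.24, 0.00 and -0.33 against 0.08, -0.03 and -0.07, and Celf1 AKO replicate 2 was the highest of all libraries for 6 of these 13. In the activation and carnitine shuttle genes the order among knockout libraries was the other way than in the later steps. Their median deviation was -0.64, -0.59 and -0.28 in replicates 1, 2 and 3, and -0.10, -0.23 and -0.52 for the 5 genes of hydration, dehydrogenation and thiolysis. Among the knockout libraries, the brown and beige markers summed to 451, 202 and 206 CPM in replicates 1, 2 and 3. Ppargc1a, the marker with a positive log2 fold change, was the largest part of each sum, at 186, 80.4 and 74.7 CPM.

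**Figure D4:**
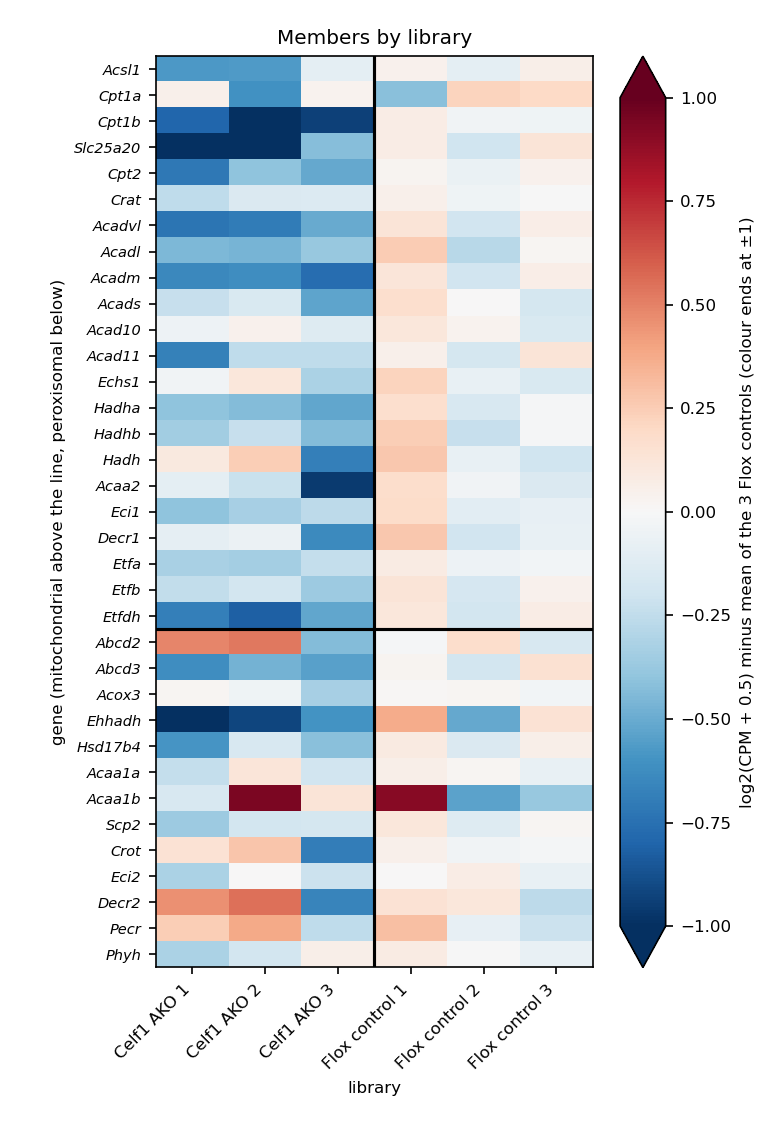
Each cell is a member (rows, mitochondrial above the black line and peroxisomal below) in 1 library (columns), coloured by its log2(CPM + 0.5) minus the mean of the 3 Flox controls, blue for lower and red for higher, with the colour ending at ±1. Most mitochondrial cells of the 3 knockout columns are blue, while Hadh, Abcd2, Crot, Decr2 and Pecr are red in Celf1 AKO replicates 1 and 2 and blue in replicate 3.

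Of 13 tested mitochondrial genes of the pathway beside the members, 10 were negative (median -0.15) and 0 passed over all genes by edgeR. At an unadjusted p under 0.05, 2 were lower and 0 higher. Of all genes tested, 52.5% were negative, 6.17% lower and 6.75% higher by the same measures. Those of smallest p were Etfbkmt, which methylates the flavoprotein (35.1 ± 7.30 against 46.9 ± 3.43 CPM), Etfrf1, a regulator of the same flavoprotein (78.8 ± 9.81 against 99.6 ± 14.1 CPM), and Mlycd, which removes the Cpt1 inhibitor malonyl-CoA (59.9 ± 10.8 against 73.7 ± 9.19 CPM). Acacb, which makes that malonyl-CoA and was named after its values were seen, lay at 642 ± 112 against 711 ± 57.2 CPM (SD, n = 3 each in all). Of 18 other peroxisomal genes 14 were negative (median -0.17), with 2 lower and 0 higher at an unadjusted p under 0.05, against the same shares of all genes. Slc27a2, a very-long-chain acyl-CoA synthetase, was at 1.64, 0.164 and 0.569 CPM against 8.78, 5.34 and 7.90 CPM, a log2 fold change of -3.22 (SE 0.69, edgeR adjusted p = 0.227). The processing protease Tysnd1 was at 39.9 ± 6.71 against 58.3 ± 8.81 CPM and the acyl-CoA synthetase Slc27a4 at 35.3 ± 4.82 against 43.7 ± 3.53 CPM.

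Genes for peroxisome assembly were negative for 13 of 16 (median -0.19), against 52.5% of all genes, and 0 passed the edgeR test over all genes. At an unadjusted p under 0.05, 4 were lower, against 6.17% of all genes, and 0 higher, against 6.75%. Pex2, a ubiquitin ligase subunit of receptor recycling, was at 38.4, 37.8 and 44.2 CPM against 53.3, 52.1 and 50.4 CPM, without overlap. Pex26, a protein of the peroxisomal membrane, was at 3.04 ± 1.87 against 7.34 ± 2.97 CPM (SD, n = 3 each), with overlap. By edgeR the adjusted p was 0.285 for Pex2 and 0.348 for Pex26.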

How the data were processed

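RNA sequencing of inguinal fat from 3 Celf1 AKO and 3 Flox control libraries was used. The authors deposited counts, as whole numbers for each Ensembl gene, and FPKM values of the same genes that, tested on the values, equal count over 1 length per gene and 1 factor per library within 0.5% for 8261 genes checked. HISAT2, RSEM 1.3.1, GRCm38 and mm10 are named, without their roles, per the submitters' processing notes. The annotation and the strand setting are not stated there or in the labels. Names came from GENCODE M21 (16522 of 16627 identifiers matched). No libraries agreed within sampling noise (chi-square per gene at least 49.4).

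Counts were tested with edgeR 4.0.16 in R 4.3.3 (quasi-likelihood test, TMM, default filter, 16366 genes, robust, Benjamini-Hochberg over all genes, threshold 0.05), with SE as fold change over the root of F. The fits were tested on simulated data. Alternatives used DESeq2 1.42.0, limma 3.58.1 (voom, and log2(FPKM + 1) or log2(FPKM + 0.1)), other normalizations and filters, a replicate block and each library left out. The 35 members, their compartments and all lists were chosen with earlier results of these data known. Every member is named. Values are given in every library for members with an unadjusted edgeR p under 0.05, both Cpt1 and both Acaa1 genes and the 3 of highest FPKM in each compartment. Other lists name up to 3 genes of smallest p, and some genes are not reported here. Further lists held the markers of skeletal muscle (1 gene tested) and epithelium (3 tested, summed to 1.01 to 12.0 CPM).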

Additional observations from a re-analysis of the deposited data

How the results depend on the processing

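Leaving out 1 library gave 0 to 527 calls over all genes, against 2 with all 6, and 0 to 3 mitochondrial members called, the highest of both without Celf1 AKO replicate 3, and 7 to 13 mitochondrial members lower at an unadjusted p under 0.05, against 11. Over all genes DESeq2 called 494, edgeR with library size only 0, limma-voom 0, limma on log2(FPKM + 1) and on log2(FPKM + 0.1) after a filter at 1 FPKM in 3 or more libraries 0 each, and limma on log2(FPKM + 1) without that minimum 1. Of the members DESeq2 called 5 mitochondrial and 2 peroxisomal ones, and the other fits of all 6 libraries, edgeR with library size only and limma among them, called 0. With the replicate block edgeR called 12 genes and 0 members. The labels do not say that the numbers pair libraries, and deviations of same-numbered libraries correlated at 0.0709, -0.00842 and 0.273, so the block was not taken as a pairing.

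Across settings with all 6 libraries the mitochondrial median log2 fold change ran from -0.37 to -0.35 and the peroxisomal one from -0.13 to -0.09. With 1 library left out they ran from -0.43 to -0.30 and from -0.22 to -0.05. The all-gene median stayed between -0.05 and 0.01. Leaving out the 4 genes of more than 1 compartment gave -0.35 and -0.10. All mitochondrial members tested stayed negative in each fit of all 6 libraries (Cpt1b was removed by the 1 FPKM minimum).

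Signs changed, at edgeR adjusted p-values of 0.284 or more, for 9 members. Without Celf1 AKO replicate 1 Acaa1a was at 0.0052. Without Celf1 AKO replicate 2 Cpt1a was at 0.013, Acaa1b at -0.17, Decr2 at -0.0098 and Pecr at -0.0013. Without Celf1 AKO replicate 3 Echs1 was at 0.031, Hadh at 0.16 and Crot at 0.21. Without Flox control replicate 1 Acad10 was at 0.0073, Echs1 at 0.039 and Hadh at 0.072, and without Flox control replicate 2 Acaa1b was at -0.023. With each library left out in turn, Cpt1a ran from -0.36 to 0.01, Echs1 from -0.18 to 0.04, Hadh from -0.26 to 0.16, Decr2 up to 0.51 and Pecr up to 0.31. The ratio of Cpt1b to Cpt1a differed by -1.20 in FPKM, by -1.58 with a pseudocount of 5 and by -2.12 to -1.30 with 1 library left out. That of Acaa1b to Acaa1a stayed between 0.14 and 0.86. Cpt1b, at 9 reads in Celf1 AKO replicate 2, is the member that depth limits.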
